A study of Mus musculus with 17 samples.

Results

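The mammary lineage and milk genes were 10 genes taken by name, by a rule that uses no measured value. Earlier results of these data were known when the genes were chosen. They were the hormone receptor genes Esr1, Pgr and Prlr, the transcription factor genes Gata3, Foxa1 and Elf5, and the milk protein genes Csn2, Csn3, Wap and Lalba. All 10 were found among the 55450 genes of the bulk table. Of these, 5 reached 1 TPM (a transcript level scaled for transcript length and library size) in at least 2 of the 14 bulk libraries and were tested among 15348 genes. Those were Esr1, Pgr, Prlr, Gata3 and Csn3. Pgr reached 1 TPM in the 2 libraries of lung-derived CD44high cells and in no other library, so it passed the filter only through the group in which it was high, and its calls for that group were set by the filter.

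The samples were cultured cell lines from female FVB/NJ mice of the MMTV-PyMT model, in which a mammary tumor virus promoter drives the polyoma middle T oncogene. Tumor-bearing organs were taken from 10 mice at an age of 10 to 12 weeks. Cell lines came from the mammary fat pad (MFP, the primary tumor), lymph nodes (LN), bone marrow (BM) and lung, and all sorted cells were selected for high EpCAM, an epithelial surface protein. LN, BM and lung cells were divided into CD44low and CD44high groups, while MFP carries no CD44 status in the labels. Each of the 7 bulk groups had 2 libraries, which the methods describe as separate clonal isolates from different mice. 3 single-cell libraries covered lung-derived CD44high (lungH), lung-derived CD44low (lungL) and LN-derived CD44high cells (lymphH), 1 library each.

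The mammary epithelium has an inner luminal layer and an outer basal layer. Luminal cells that carry the estrogen receptor and the progesterone receptor sense ovarian hormones, and luminal progenitor cells give rise to the alveolar cells that make milk. GATA3 and FOXA1 are transcription factors of the luminal lineage, with FOXA1 acting beside the estrogen receptor. ELF5 and the prolactin receptor, which signals through JAK2 and STAT5, direct the formation of alveoli and the transcription of milk protein genes.

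The lung-derived libraries stood apart in their epithelial transcripts. Epcam was listed at 0 TPM in both lung CD44low libraries and measured 0.23 and 0.86 TPM in lung CD44high, whereas the other 10 libraries held 315.09 to 941.14 TPM. The summed level of 11 luminal epithelial markers was 7.31 and 9.88 TPM in lung CD44low and 202.4 and 310.81 TPM in lung CD44high, against 2941.49 to 8940.37 TPM elsewhere. In lung CD44high Cd24a alone held 184.23 and 220.07 TPM. Cdh1, the defining cadherin of epithelial cells, was at most 0.03 TPM in the 4 lung libraries. Of the 10 luminal markers tested, 10 were lower than in MFP in lung CD44low and 9 in lung CD44high, with Cd24a as the exception, where 18.8% and 13.5% of all genes were called in either direction. In LN CD44low, LN CD44high, BM CD44low and BM CD44high, 5, 3, 3 and 4 of the 10 were lower, against 4.79%, 6.12%, 7.16% and 7.67% of all genes called. Each of these 6 counts includes Cldn7, which reached 1 TPM only in MFP, so that its call was set by the filter. The 10 fibroblast markers summed to 5794.36 and 6331.73 TPM in lung CD44low and to 1823.12 and 2379.29 TPM in lung CD44high, where Vim alone held 1628.29 and 2293.55 TPM. They summed to 15.02 to 778.58 TPM in the other groups. Thus Epcam transcripts in the lung lines went against their EpCAM-high label, while some luminal transcripts, mostly Cd24a, remained in lung CD44high. Calls in LN and BM lines were repeated without them, which left Prlr, Gata3 and Csn3 as the members tested.

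Markers of other cell types were mostly low. The 5 endothelial markers summed to at most 0.21 TPM in any library. Adgre1, which defines macrophages, and Nkx2-1, which defines lung epithelium, were listed at 0 in all 14 libraries, as was the adipocyte gene Adipoq. The summed levels of the macrophage, adipocyte and lung epithelial lists reached 39.18, 102.41 and 611.01 TPM, and the last 2 sums were carried by Fabp4 in lung CD44low and by Aqp5 in LN and BM lines. The 14 basal or myoepithelial markers summed to 912.07 and 992.35 TPM in lung CD44low, of which Acta2 gave 657.24 and 710.77 TPM, and to 618.9 and 672.95 TPM in MFP, of which Krt14 gave 593.55 and 655.28 TPM. They summed to 33.4 to 76.22 TPM in the other 5 groups. In bulk libraries, fewer cells of a type and less RNA per cell cannot be told apart.

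**Figure D1:**
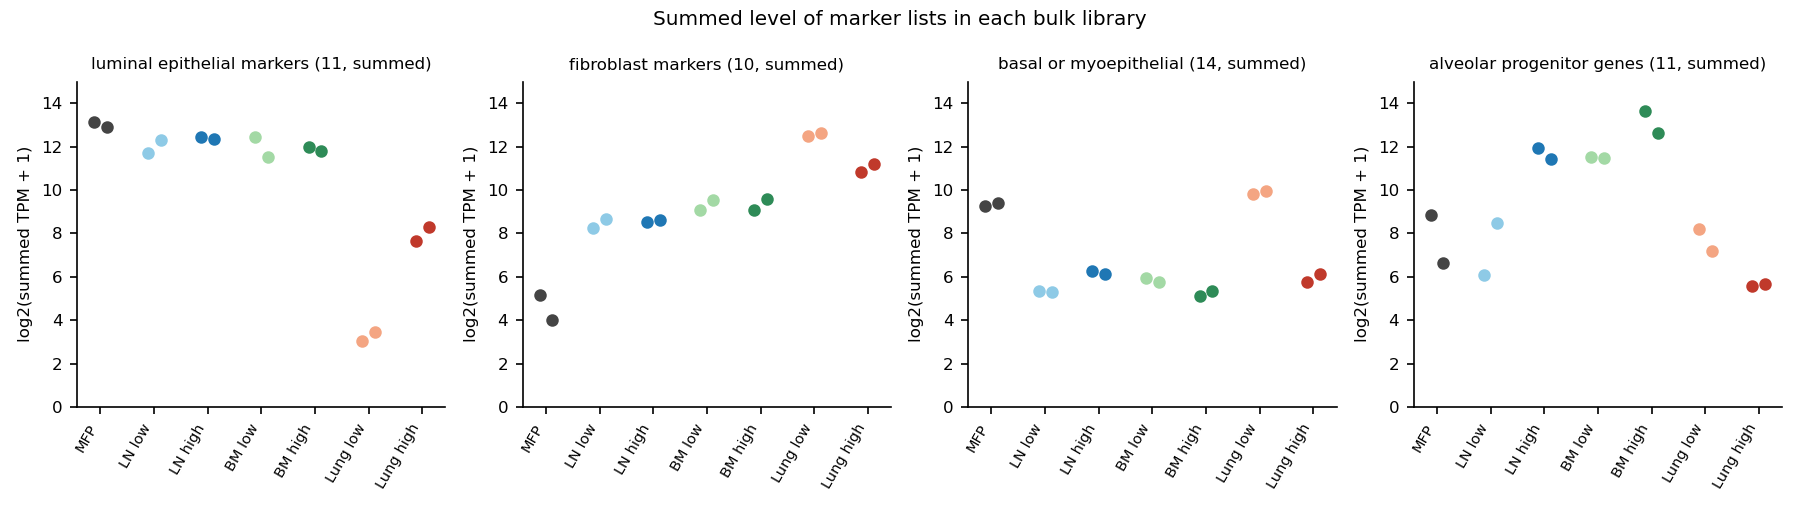
Summed TPM of marker lists in each bulk library, on the log2(summed TPM + 1) scale; points are libraries, low and high stand for CD44low and CD44high. Luminal markers lay at 7.31 to 310.81 TPM in the 4 lung libraries and at 2941.49 TPM or more in the other 10, and fibroblast markers were highest in the lung lines.

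The estrogen receptor gene Esr1 (chr10:4611593-5005614, + strand, mm10) had its highest level in lung CD44high cells. Esr1 measured 30.04 and 16.14 TPM in lung CD44high and 3.74 and 5 TPM in lung CD44low. In MFP the values were 0.66 and 1.55 TPM. LN CD44low held 0.24 TPM in both libraries and LN CD44high 0.45 and 0.49 TPM, with 0.34 and 0.93 TPM in BM CD44low and 0.56 and 0.53 TPM in BM CD44high. Lung CD44high therefore lay above lung CD44low, and lung CD44low above MFP, with no overlap between libraries, while MFP overlapped with BM CD44low. In lung CD44high Esr1 was higher than in MFP by a log2 fold change of 3.49 ± 0.34 (SE, n = 2 and 2; limma adjusted p = 3.85e-05). A member was called where the change on the log2(TPM + 1) scale passed 2 in size and the limma p, adjusted by Benjamini-Hochberg across the 15348 genes, lay below 0.05. In lung CD44low the difference from MFP was 1.37 ± 0.34, which missed the fold limit (limma adjusted p = 0.00807). In the LN and BM groups Esr1 was not called, with log2 fold changes of -0.73 to -0.36.

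The progesterone receptor gene Pgr (chr9:8899833-8968611, + strand) is a target of the estrogen receptor in the mammary gland. Pgr measured 12.54 and 6.05 TPM in lung CD44high and 0.2 and 0.47 TPM in lung CD44low. It was listed at 0 in the 2 MFP, 4 LN and 2 BM CD44low libraries and in 1 BM CD44high library, while the other BM CD44high library held 0.02 TPM. Both lung CD44high libraries lay above both lung CD44low libraries. Its difference from MFP is given by these values alone, with no fold change and no test, because MFP was listed at 0 and the filter admitted Pgr only through lung CD44high. The estrogen receptor paralog Esr2 was at most 0.08 TPM in any library.

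Esr1 and Pgr shared their order of groups at the top, and Gata3 shared its highest group with them. The 250 bases before each annotated start are shown for Pgr and Gata3, since both genes were highest in lung CD44high cells, and for the second of 3 Prlr starts, where 4 of the 6 motifs searched were found. Sequences are from RefSeq promoter windows on GRCm38.p6, which is mm10, read 5′ to 3′ on the gene's strand. Capitals mark any match, on either strand, to the GATA motif (AGATAA and also AGATAG, with TGATAA and also TGATAG), STAT (TTCNNNGAA), the estrogen element core (GGTCA), the progesterone or glucocorticoid element core (AGAACA), FOXA (TGTTTAC) or ETS (AGGAAG) motifs.
Pgr, chr9:8899583-8899832: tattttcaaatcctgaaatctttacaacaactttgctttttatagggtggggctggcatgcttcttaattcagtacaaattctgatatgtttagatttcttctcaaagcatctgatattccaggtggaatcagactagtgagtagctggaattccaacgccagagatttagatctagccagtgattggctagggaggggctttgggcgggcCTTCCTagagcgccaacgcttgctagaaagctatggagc
Gata3, chr2:9878601-9878850: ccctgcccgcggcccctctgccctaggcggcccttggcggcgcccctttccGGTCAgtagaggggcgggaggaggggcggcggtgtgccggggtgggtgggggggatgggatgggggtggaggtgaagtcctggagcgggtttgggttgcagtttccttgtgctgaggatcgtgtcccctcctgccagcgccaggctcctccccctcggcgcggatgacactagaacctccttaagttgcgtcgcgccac
Prlr, chr15:10223656-10223905: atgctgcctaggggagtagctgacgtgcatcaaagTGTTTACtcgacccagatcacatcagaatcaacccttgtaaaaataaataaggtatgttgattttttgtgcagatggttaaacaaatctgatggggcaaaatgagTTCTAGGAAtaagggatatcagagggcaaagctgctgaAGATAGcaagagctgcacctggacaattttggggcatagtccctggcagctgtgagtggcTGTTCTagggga
The Pgr window lay outside every annotated gene and held 1 ETS match, found in 29.5% of the 32851 windows of the same length. The Gata3 window lay within the annotated Gata3 gene, outside its exons, and overlapped with an exon of the antisense gene Gm13256, and its 1 match was an estrogen element core, found in 35.2% of windows. The Prlr window lay in a Prlr intron and held 1 match each for FOXA, STAT, GATA and the progesterone or glucocorticoid core, found in 3.17%, 7.02%, 26.5% and 16.1% of windows. No motif overlapped another in these windows. A match describes the letters only. 9 of the 10 members had windows, 13 windows in all, and Csn3 had none.

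The STAT motif occurred in 3 of the 13 member windows. Each is shown with 10 bases on either side because prolactin signals through STAT5.
Csn2, chr5:87699500-87699528: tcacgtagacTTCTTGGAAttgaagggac
Prlr, chr15:10223786-10223814: gcaaaatgagTTCTAGGAAtaagggatat
Esr1, chr10:4709960-4709988: ctggagtttcTTCTAGGAAtgctgattct
The Esr1 stretch, before the second of 2 starts, and the Prlr stretch held the same 9 letters. The Csn2 motif began 93 bases before the RefSeq start of beta-casein, and the Csn2 and Esr1 windows overlap with exons of these genes in the GENCODE annotation, whose first starts lie further upstream. Csn2 was at or near 0 TPM in all libraries, while Prlr and Esr1 had their highest levels in different lines.

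The prolactin receptor gene Prlr (chr15:10177238-10349180, + strand) was present in BM and LN lines and listed at 0 in both MFP libraries and all 4 lung libraries. Prlr measured 3.15 and 2.81 TPM in BM CD44low and 2.64 and 1.22 TPM in BM CD44high. In LN CD44high it measured 1.52 and 0.79 TPM, and in LN CD44low 0.07 and 0.13 TPM. BM CD44low lay above BM CD44high, BM CD44high overlapped with LN CD44high, and both LN CD44high libraries lay above both LN CD44low libraries. Against MFP the limma adjusted p was 0.00034 in BM CD44low, 0.00167 in BM CD44high, 0.0104 in LN CD44high and 0.81 in LN CD44low, and no group passed the fold limit with a pseudocount of 1. With a pseudocount of 0.1, Prlr was called higher in BM CD44low, BM CD44high and LN CD44high, and BM CD44low also passed the limit with median-ratio scaling and without its second library. No fold change is given because MFP was listed at 0. Without the lung libraries the adjusted p-values were 0.0041, 0.0119, 0.0437 and 0.843 in the same order. Exons of Prlr overlap with Gm21973 on the same strand, which was listed at 0 in all libraries but 1, where it held 0.5 TPM.

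GATA3 maintains the luminal identity of mammary cells, and Gata3 (chr2:9857078-9890034, - strand) reached the highest level of any member. Gata3 measured 187.13 and 305.27 TPM in lung CD44high and 41.39 and 36.58 TPM in MFP. The other 10 libraries held 1.15 to 4.08 TPM, with 2.14 and 2 TPM in lung CD44low. Lung CD44high lay above MFP and MFP above every other group, while the remaining 5 groups overlapped with their neighbours in level. Gata3 fell against MFP in 5 groups, by log2 fold changes of -3.33 ± 0.41 in LN CD44low (limma adjusted p = 0.000407), -3.46 in LN CD44high, -3.71 in BM CD44low, -3.89 in BM CD44high and -3.70 in lung CD44low. In lung CD44high it was higher than in MFP by 2.59 ± 0.41 (limma adjusted p = 0.000829). Without the lung libraries the 4 LN and BM calls stood, with limma adjusted p-values of 0.000811 to 0.00231. The luminal marker sums were also lower in LN and BM lines, at 2941.49 to 5535.02 TPM, than in MFP, at 7692.97 and 8940.37 TPM, and fibroblast marker sums were higher, at 302.28 to 778.58 TPM, most of it Vim, against 15.02 and 34.73 TPM. Their part in the Gata3 difference was not tested. Gata3 exons overlap with 9230102O04Rik on the same strand and with the antisense gene Gm13256, which reached 1.69 and 0.37 TPM. The libraries were made by a modified SMART-seq2 method that is not stated to keep strand, so reads of overlapping genes cannot be fully told apart.

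Foxa1 (chr12:57540628-57546916, - strand) was under 1 TPM in all libraries. Foxa1 measured 0.54 and 0.72 TPM in MFP and 0.31 and 0.95 TPM in BM CD44low. It ranged from 0.07 to 0.32 TPM in BM CD44high and the LN groups, and was listed at 0 in all 4 lung libraries. In the bulk table, Esr1 and Gata3 thus had their highest levels where Foxa1 was listed at 0. With no filter on low values, Foxa1 differed from MFP in lung CD44low (limma adjusted p = 0.0156) and lung CD44high (0.0193), below the fold limit.

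Elf5 (chr2:103411688-103450989, + strand) exceeded 1 TPM in a single library. Elf5 measured 1.54 and 0.27 TPM in LN CD44high, 0.35 and 0.67 TPM in BM CD44low and 0.12 and 0.33 TPM in BM CD44high. It was at most 0.04 TPM in the LN CD44low and lung libraries and was listed at 0 in MFP. LN CD44high overlapped with BM CD44low, and BM CD44low lay just above BM CD44high. With no filter on low values, the lowest limma adjusted p against MFP was 0.0807, in LN CD44high.

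**Figure D2:**
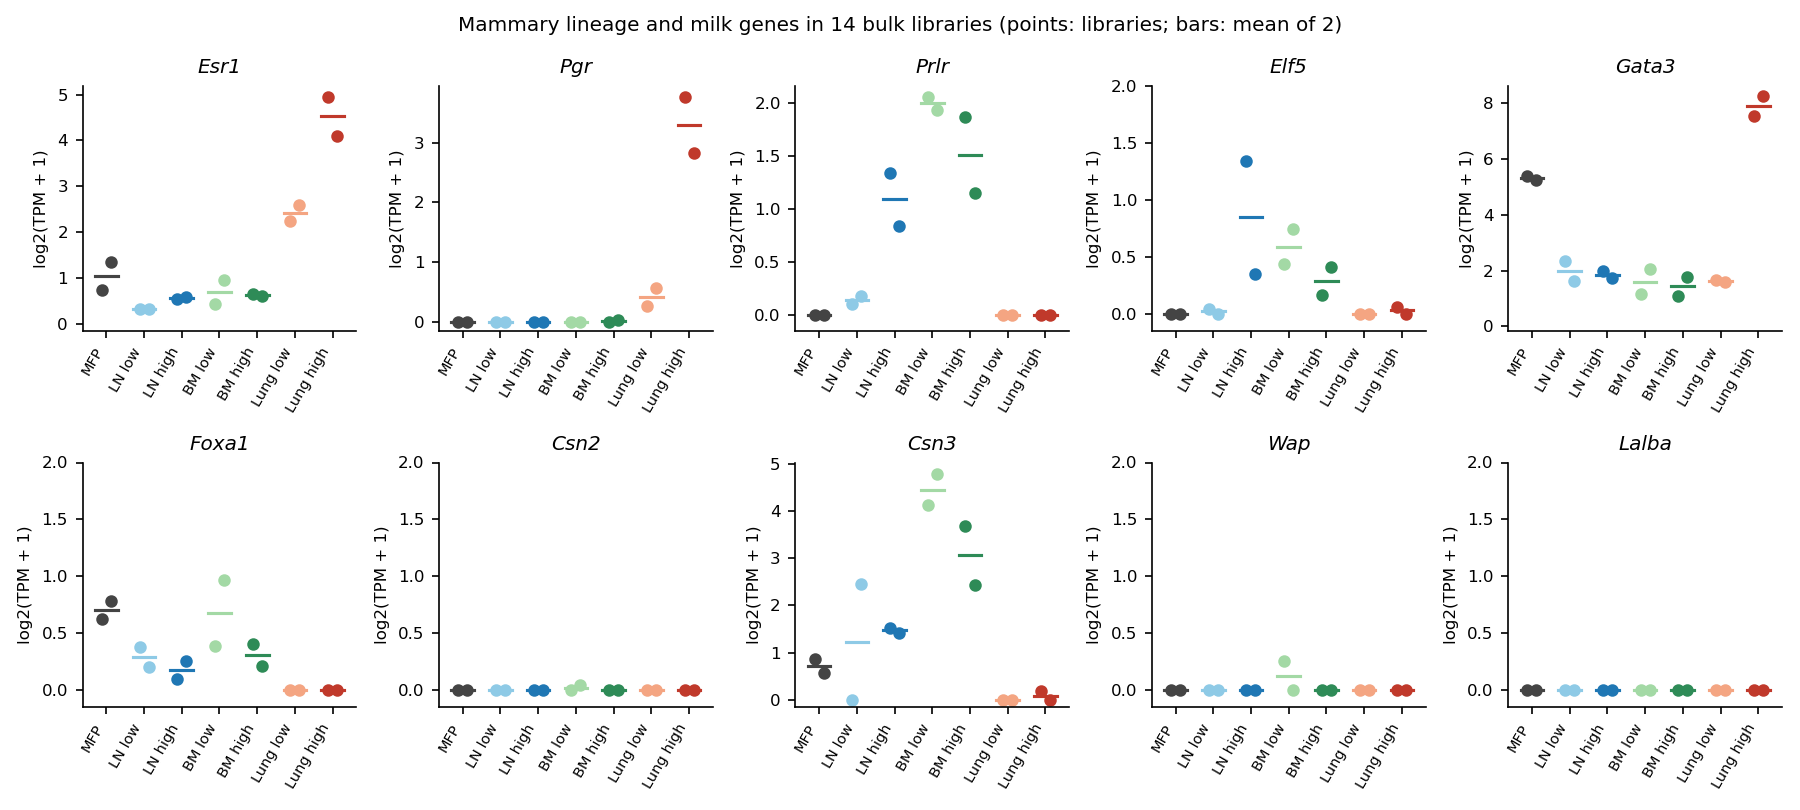
Level of the 10 members in the 14 bulk libraries, as log2(TPM + 1); points are libraries, horizontal bars the mean of the 2 libraries of a group. Esr1, Pgr and Gata3 were highest in lung CD44high, Prlr and Csn3 in BM CD44low, and Csn2, Wap and Lalba stayed at or near 0.

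Of the 4 milk protein genes, only Csn3 (chr5:87925579-87932665, + strand), which encodes kappa-casein, the protein that stabilizes casein micelles, reached 1 TPM. Csn3 measured 16.35 and 26.56 TPM in BM CD44low and 11.91 and 4.37 TPM in BM CD44high. In LN CD44low it was listed at 0 in 1 library and measured 4.45 TPM in the other. LN CD44high held 1.88 and 1.67 TPM, and MFP held 0.83 and 0.49 TPM. In lung CD44high the values were 0.14 and 0 TPM, and lung CD44low was listed at 0. BM CD44low lay above BM CD44high, which overlapped with LN CD44low through its library at 4.45 TPM. Csn3 was higher than in MFP by 3.73 ± 0.68 in BM CD44low (limma adjusted p = 0.00344) and by 2.33 ± 0.68 in BM CD44high (limma adjusted p = 0.0291). Without the lung libraries the adjusted p was 0.0126 in BM CD44low and 0.0601 in BM CD44high, so the second call was lost. In LN CD44low and LN CD44high the log2 fold changes were 0.50 and 0.75, and neither was called.

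The milk genes beta-casein (Csn2), whey acidic protein (Wap) and alpha-lactalbumin (Lalba), whose product is the regulatory part of lactose synthase, were not expressed at a level above 0.19 TPM. Csn2 (chr5:87692624-87699630, - strand) was above 0 in 1 BM CD44low library, at 0.03 TPM. Wap (chr11:6635482-6638637, - strand) was above 0 in the other BM CD44low library, at 0.19 TPM. Lalba (chr15:98480400-98482721, - strand) was listed at 0 in all 14 libraries.

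Csn2 and Csn3 lie in one casein locus, from Csn1s1 to Csn3 at chr5:87666208-87932665. That interval holds 13 annotated genes, of which 7 are protein-coding. Csn3, at the end of the interval, was the single protein-coding gene there to reach 1 TPM. Csn1s1, Csn1s2b, Prr27 and Odam reached at most 0.05, 0.09, 0.04 and 0.15 TPM, and Csn1s2a was listed at 0 throughout. A processed pseudogene between Csn2 and Csn1s2a, Gm42845, was listed at up to 1492.35 TPM, and reads of a processed pseudogene can come from its parent gene elsewhere. The level of Csn3 in BM lines was thus not accompanied by levels of the neighbouring caseins.

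**Figure D3:**
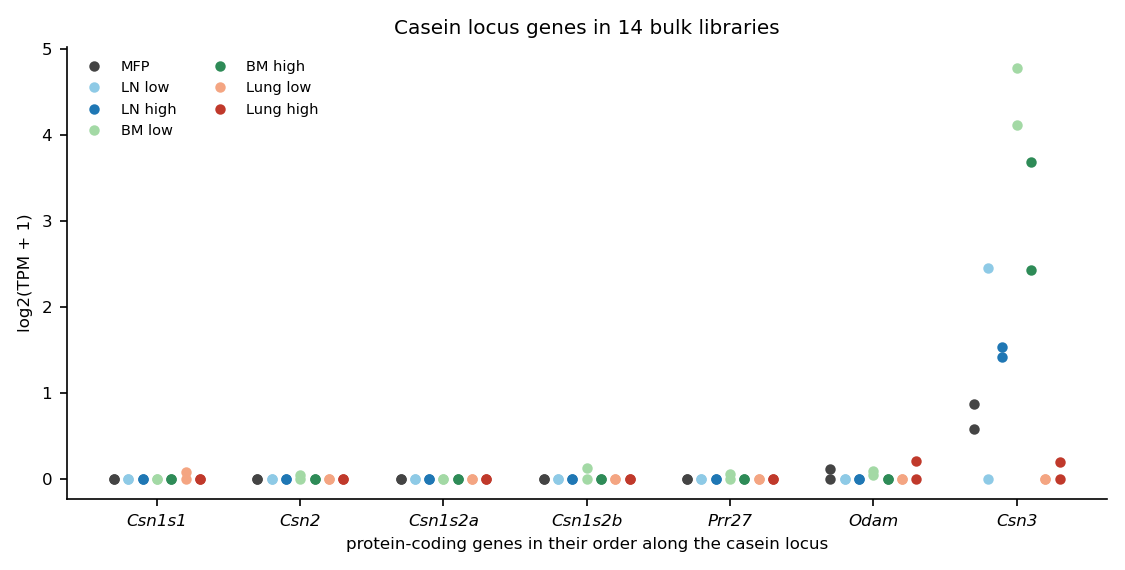
Level of the 7 protein-coding genes of the casein locus in 14 bulk libraries, as log2(TPM + 1), in their order along the chromosome; each point is a library. Csn3 reached 26.56 TPM, and the other 6 genes stayed at or below 0.15 TPM.

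Against MFP, members were called in each of the 6 groups, and these comparisons share the 2 MFP libraries. Of the 5 tested members, Gata3 was called in LN CD44low and in LN CD44high, where 4.79% and 6.12% of all tested genes were called. Gata3 and Csn3 were called in BM CD44low and in BM CD44high, against 7.16% and 7.67% of all genes. Gata3 was called in lung CD44low, against 18.8% of all genes, and Esr1 and Gata3 in lung CD44high, against 13.5%. Pgr also passed the limits in lung CD44high, which the filter had set, and nothing is read from it. With Pgr included, 10 pairs of member and group passed, 5 higher and 5 lower. With a pseudocount of 0.1 there were 13, of which 8 were higher and 5 lower, as Prlr was added in 3 groups. Gata3 was lower in 5 of the 6 groups and Csn3 higher in 2.

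**Figure D4:**
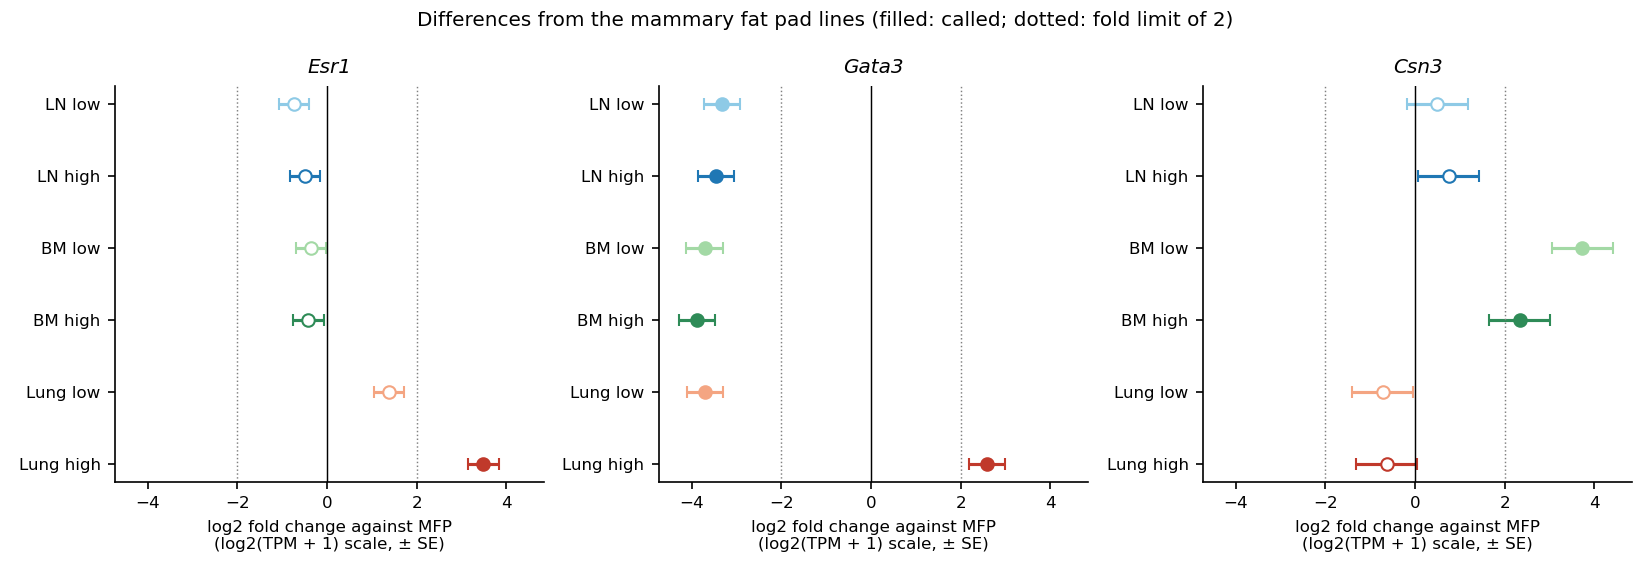
Log2 fold change against MFP of Esr1, Gata3 and Csn3, with standard errors, on the log2(TPM + 1) scale; filled points were called, open points were not, and dotted lines mark the fold limit of 2. Gata3 lay between -3.89 and -3.33 in 5 groups and at 2.59 in lung CD44high.

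CD44high and CD44low cells of the same organ were compared next. In lung, Esr1 was higher in CD44high cells by 2.11 ± 0.34 (limma adjusted p = 0.00109) and Gata3 by 6.29 ± 0.41 (1.65e-06), against 11.3% of all genes called. Pgr was also past the limits, by 2.88, or by 4.41 with a pseudocount of 0.1, which the filter had set. The Esr1 difference was 1.94 without the first lung CD44low library and 1.68 without the first lung CD44high library, both under the fold limit. Csn3 differed by 0.09 and was not called, and Prlr was listed at 0 in both lung groups. In LN and in BM no tested member was called, where 0.208% and 0.104% of all genes were called. In LN the largest difference was that of Prlr, 0.95 ± 0.24 (limma adjusted p = 0.197, or 0.461 without the lung libraries). In BM it was that of Csn3, -1.39 ± 0.68 (limma adjusted p = 0.624, or 0.726 without the lung libraries).

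The CD44 difference itself differed between organs for Gata3 and, against BM, for Esr1. An interaction contrast compared the lung difference with that in LN, where 10.4% of all genes were called, and with that in BM, where 8.66% were called. For Gata3 the lung difference exceeded that in LN by 6.42 ± 0.57 and that in BM by 6.47 ± 0.57. For Pgr this contrast only repeats that the gene was present in lung CD44high and near 0 in LN and BM. For Esr1 it was 2.17 ± 0.48 over BM (limma adjusted p = 0.0119) and 1.87 ± 0.48 over LN, the latter under the fold limit. The excess over LN was 2.04 or 2.30, past the limit, without the second lung CD44low or the second lung CD44high library, and that over BM was 1.91 without the second BM CD44low and 1.74 without the first lung CD44high library. The call over BM was also lost with a pseudocount of 0.1 (limma adjusted p = 0.0740) and without the first lung CD44low library (2.00, limma adjusted p = 0.0507). These contrasts share the 4 lung libraries. The luminal marker sums of 202.4 and 310.81 TPM in lung CD44high, of which Cd24a alone held 184.23 and 220.07 TPM, and 7.31 and 9.88 TPM in lung CD44low moved with these differences, as did the higher fibroblast and basal sums of lung CD44low, and their part in the result was not tested.

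Lung lines were also set against LN and BM lines together, where 12.7% of all genes were called. Gata3 was higher in lung lines by 3.04 ± 0.25 (limma adjusted p = 4.69e-06). Esr1 and Csn3 also passed the limits, by 2.93 and -2.50, which the filter had set. Outside lung, Esr1 reached 1 TPM only in an MFP library, at 1.55 TPM. Csn3 reached 1 TPM only in LN and BM libraries. All 4 lung libraries lay above all 8 LN and BM libraries for Esr1. For Gata3 the lung CD44low libraries lay within the range of LN and BM, so the call rested on lung CD44high. Nothing is read from this contrast for Pgr, which the filter admitted only through lung CD44high. Prlr, which also reached 1 TPM only in LN and BM libraries, was listed at 0 in the lung libraries and missed the fold limit.

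Among 13 steroid receptors and coregulators, Esr1 and Pgr included, 12 were tested. In lung CD44high Esr1 and Nr3c2 were called higher than MFP, beside Pgr, whose call the filter had set, where 13.5% of all genes were called. In lung CD44low 1 was called higher (Nr3c1), against 18.8% of all genes. None was lower, and none was called in LN or BM, with or without the lung libraries. The median log2 fold change in lung CD44high was 1.14, against -0.04 over all genes. Nr3c2, the mineralocorticoid receptor, measured 27.45 and 10.42 TPM in lung CD44high and 0.97 and 0.61 TPM in MFP (log2 fold change 3.34, limma adjusted p = 0.00016). Nr3c1, the glucocorticoid receptor that acts with STAT5 on milk genes, measured 54.14 and 57.21 TPM in lung CD44low and 14.23 and 11.74 TPM in MFP (2.02, limma adjusted p = 0.0106).

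Genes that hormone-sensing cells express, or that estrogen and progesterone induce, moved in both directions. Of 11 tested of 16, 3 were higher and 3 lower than MFP in lung CD44high, and 4 were higher and 2 lower in lung CD44low, against 13.5% and 18.8% of all genes called. The filter had set 2 of the 4 higher calls, those of Tnfsf11 and Tbx3, which fail it without lung CD44low. Areg, the amphiregulin gene that estrogen induces in the mammary duct, measured 297.05 and 127.36 TPM in MFP and 0.11 and 0 TPM in lung CD44high, a difference of -7.54 (limma adjusted p = 2.99e-06). Areg was thus near 0 in the line with the highest Esr1, and also in lung CD44low, at 0.21 and 0.17 TPM. It was called lower than MFP in BM CD44high too (-3.34, limma adjusted p = 0.00109). Greb1, another estrogen-induced gene, measured 15.59 and 3.22 TPM in lung CD44high and 0.14 and 0.02 TPM in MFP (2.96, limma adjusted p = 0.00192). Tnfsf11, the RANK ligand gene that progesterone induces, measured 18.9 and 14.67 TPM in lung CD44low and was listed at 0 in all other groups, so it passed the filter only through lung CD44low. In single cells Tnfsf11 gave 0 counts in all 3 libraries, lungL included. Wnt4, a further progesterone target, was at most 0.31 TPM in bulk, yet gave 1069 single-cell counts in lungH, or 4.84 per 10000 (4.55 to 5.13), against 20 in lungL and 17 in lymphH. For both genes the bulk and single-cell values thus differed. Between the lung groups, Cxcl12 and Igfbp4 were lower in CD44high, beside Tnfsf11 and Tbx3, whose calls the filter had set, and none of the 11 was higher, against 11.3% of all genes called. In LN and BM groups 1 to 4 of the 11 were called, against 4.79% to 7.67% of all genes.

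Prolactin and lactogenic signaling genes were present in lines with and without Prlr. Of 15 tested of 16, 1 or 2 were called against MFP in each LN and BM group, against 4.79% to 7.67% of all genes. In lung CD44low 4 were called, against 18.8%, and in lung CD44high 3, against 13.5%, and the median log2 fold change lay between -0.15 and 0.93. Stat5a measured 5.87 to 31.06 TPM and Stat5b 4.68 to 19.27 TPM over the 14 libraries, and neither was called against MFP in any group. Jak2 measured 3.43 and 3.73 TPM in MFP and 0.31 to 0.91 TPM in LN and BM lines, a difference of -1.41 to -1.61, under the fold limit. Socs3, a cytokine-induced inhibitor of JAK signaling, was higher than in MFP in all 4 LN and BM groups, for example 31.75 and 80.82 TPM in BM CD44low against 5.16 and 3.84 TPM (3.24, limma adjusted p = 0.000328). Socs3 was also called higher in lung CD44low, where Prlr was listed at 0, at 78.99 and 137.81 TPM. Ghr, the growth hormone receptor and a relative of Prlr, was highest where Prlr was listed at 0, with 409.07 and 260.38 TPM in lung CD44high, 84.11 and 169.69 TPM in lung CD44low and 2.83 to 5.15 TPM in LN and BM lines. Ghr was higher than in MFP by 4.10 in lung CD44high (limma adjusted p = 1.39e-05).

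A few other milk and secretory genes were higher in BM and LN lines. Of 10 tested of 21, 3 were higher than MFP in BM CD44high, 2 each in BM CD44low and LN CD44high and 1 in LN CD44low, with none lower, against 7.67%, 7.16%, 6.12% and 4.79% of all genes called. These counts were the same without the lung libraries. Wfdc18, which encodes a whey acidic protein family member, measured 563.21 and 679.96 TPM in BM CD44low and 2.15 and 0.54 TPM in MFP (8.14, limma adjusted p = 2.24e-06). Trf, the transferrin gene, measured 376.23 and 112.72 TPM in BM CD44low and 2 and 0.27 TPM in MFP (6.73, limma adjusted p = 0.00188). Ltf, the lactoferrin gene, measured 26.63 and 7.26 TPM in BM CD44high and 0.81 and 0.49 TPM in MFP (3.20, limma adjusted p = 0.00266). Wfdc18 was also the one list gene called between CD44high and CD44low in LN, at 508.34 and 302.39 TPM against 30.71 and 62.38 TPM (3.13, limma adjusted p = 0.0215), a call that was lost without the lung libraries (adjusted p = 0.0840). In lymphH, the single-cell library of LN CD44high cells, Wfdc18 gave only 17 counts, or 0.0322 per 10000. Xdh, which secretory cells need to release milk fat, measured 286.08 and 184.77 TPM in lung CD44high and 1.45 and 4.34 TPM in MFP (higher, limma adjusted p = 2.04e-05). Mfge8, a milk fat globule protein gene, measured 150.12 to 577.7 TPM in all libraries and was not called against MFP in LN or BM.

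Most alveolar luminal progenitor genes tested were higher in BM lines than in MFP. Of 10 tested of 11, 6 were higher and 1 lower than MFP in BM CD44low and in BM CD44high, and 4 were higher and 1 lower in LN CD44high, while none was higher and 1 was lower in LN CD44low. The lower gene was Cd55 in each case, which reached 1 TPM only in MFP, so that its call was set by the filter. The shares of all genes called were 7.16%, 7.67%, 6.12% and 4.79%. Without the lung libraries 9 were tested, and 5 in place of 6 were higher in BM CD44high, as Kit was lost (limma adjusted p = 0.0565). The median log2 fold changes were 2.69, 2.28, 1.19 and 0.04 in these groups, against -0.04, -0.34, -0.30 and -0.18 over all genes. Ehf, an ETS factor related to Elf5, measured 41.14 and 52.31 TPM in BM CD44low and 3.08 and 4.63 TPM in MFP (3.31, limma adjusted p = 0.0037). Lcn2, a secreted lipocalin, measured 12526.69 and 6172.41 TPM in BM CD44high and 356.4 and 36.66 TPM in MFP (6.24, limma adjusted p = 0.0019). In LN CD44high Lcn2 measured 3753.36 and 2685.66 TPM, while in lymphH single cells it gave 294 counts, or 0.556 per 10000. Kit, the receptor gene of luminal progenitors, measured 4.63 and 29.45 TPM in BM CD44low and was listed at 0 in MFP. In lung CD44low 1 was higher and 3 were lower, against 18.8% of all genes called, where the filter had set the calls of Rspo1, the higher gene, and Cd55. In lung CD44high none was higher and 3 were lower, Cd55 included, against 13.5%, among them Ehf, at 0 and 0.03 TPM.

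Some regulators of the luminal lineage were lower in lung lines. Of 13 tested of 17, 6 were lower, 1 was higher and 6 were not called against MFP in lung CD44low, where 18.8% of all genes were called. The higher gene was Tbx3, whose call the filter had set. In lung CD44high 4 were lower, none was higher and 9 were not called, against 13.5% of all genes. In LN CD44low 1 was lower and none higher, against 4.79% of all genes. In LN CD44high, BM CD44low and BM CD44high 2 were higher (Ehf and Tfap2c) and 1 lower, against 6.12%, 7.16% and 7.67%. Grhl2, a regulator of epithelial junction genes, was at most 0.24 TPM in lung libraries and 14.5 and 17.44 TPM in MFP (-3.92 in lung CD44high, limma adjusted p = 3.91e-05). Elf3 was listed at 0 in all 4 lung libraries and measured 24.07 and 46.43 TPM in MFP. It was also called lower than MFP in all 4 LN and BM groups, at 2.39 to 7.59 TPM. Tfap2a was higher in one lung group than in the other, at 14.87 and 11.25 TPM in lung CD44high and 0.05 and 0.04 TPM in lung CD44low (3.74, limma adjusted p = 0.00455), and its highest value was 38.4 TPM in a BM CD44low library.

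The genes whose levels most resembled each tested member over the 14 libraries are given as a description, since libraries share groups. For Esr1 they were Plcl1 (Pearson r = 0.984), Piezo2 (0.982) and Cadm2 (0.980). For Pgr they were Klhl33, Dchs2 and Ntrk3 (0.997, 0.997 and 0.996), of which Klhl33 measured 72.94 and 31.95 TPM in lung CD44high and at most 0.55 TPM elsewhere. For Gata3 they were Tfap2b (0.986), 9230102O04Rik, which overlaps with it, and Epb41l5 (0.977). Tfap2b measured 10.05 and 14.81 TPM in lung CD44high, 5.67 and 5.05 TPM in MFP and 0 elsewhere. For Prlr they were Atp6v1b1 (0.973), Krt23 (0.969) and A530020G20Rik (0.961), and for Csn3 they were Ly6g6e (0.976), 9430007M09Rik (0.949) and Camk1g (0.938). Among the members, Esr1 and Pgr had r = 0.93 and Prlr and Csn3 r = 0.90, while Esr1 and Prlr had r = -0.49.

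The single-cell libraries held 1236 cells in lungH, 348 in lungL and 2562 in lymphH after filtering, with 2210623, 2220759 and 5287425 counts. Median counts per cell were 557, 4011 and 585, so members were summed over cells and given per 10000 counts, with exact Poisson 95% intervals that cover counting error only. With 1 library per group there was no test. Gata3 gave 1354 counts in lungH, or 6.13 per 10000 (5.80 to 6.46), 95 counts in lungL, or 0.428 (0.346 to 0.523), and 83 counts in lymphH, or 0.157 (0.125 to 0.195). Thus lungH was highest and the 3 intervals did not overlap. In lungL, 10 cells held 49.5% of the Gata3 counts, against 11.9% in lungH. Epcam gave 3 counts in lungH, 0 in lungL and 936 in lymphH, so Epcam was near 0 in the lung lines by both assays. The 11 luminal markers together gave 10.9 per 10000 in lungH, 5.81 in lungL and 18.6 in lymphH, a smaller gap than in bulk, and Krt18 was higher in lungH, at 2.59, than in lymphH, at 1.17. Cd24a alone gave 6.33, 4.18 and 8.19 of these sums, so it made up most of the lungH and lungL sums.

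Esr1 gave 51 counts in lungH, or 0.231 per 10000 (0.172 to 0.303), 5 in lungL, or 0.0225 (0.00731 to 0.0525), and 15 in lymphH, or 0.0284 (0.0159 to 0.0468). The lungH interval lay above the other 2, which overlapped. Of the 29 lungH cells with an Esr1 count, 23 also had a Gata3 count, and these 29 cells were deep, with a median of 7859 counts. Pgr gave 0 counts in all 3 libraries, which allows up to 0.0136 per 10000 in lungH, 0.0135 in lungL and 0.00567 in lymphH at the limit of 3 counts, which is one-sided. The upper ends of the exact Poisson intervals were 0.0167, 0.0166 and 0.00698. Pgr, present in both bulk lung CD44high libraries, was thus not detected in lungH. Counts per 10000 are not scaled for transcript length, so levels of different genes are not compared in these libraries.

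Prlr, Foxa1 and Csn3 were detected mainly in lymphH. Prlr gave 11 counts in lymphH, or 0.0208 per 10000 (0.0104 to 0.0372), 1 in lungH and 0 in lungL. Foxa1 gave 13 counts in lymphH, or 0.0246 (0.0131 to 0.042), 1 in lungH and 0 in lungL. Csn3 gave 11 counts in lymphH, or 0.0208 (0.0104 to 0.0372), and 0 in both lung libraries. These few counts came from 8 to 12 cells per gene, and for each of the 3 genes the intervals of lungH and lymphH overlapped. Elf5, Csn2, Wap and Lalba gave 0 counts in every library. Summed over the 10 members, the level was 6.36 per 10000 in lungH, 0.45 in lungL and 0.252 in lymphH.

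**Figure D5:**
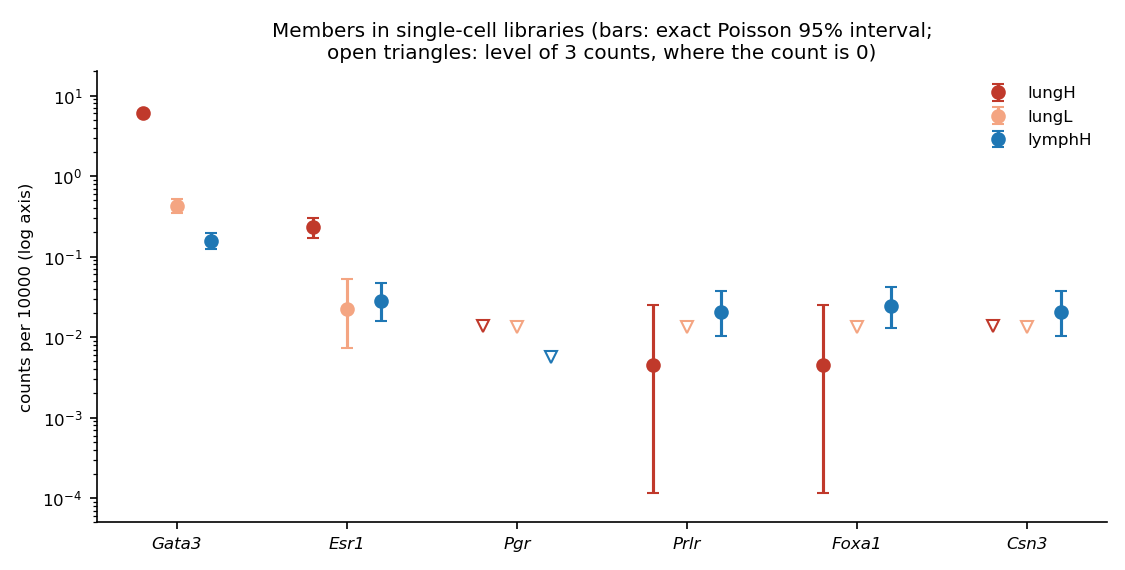
Counts per 10000 of 6 members summed over the kept cells of each single-cell library, on a log axis, with exact Poisson 95% intervals; open triangles mark the level of 3 counts where a gene had 0 counts. Gata3 lay at 6.13 per 10000 in lungH and under 0.6 in the other 2 libraries.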

How the data were processed

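Bulk RNA-seq covered 14 libraries in 7 groups, and single-cell RNA-seq covered 3 libraries, grouped by the labels. Bulk values are TPM, deposited by the authors, whose processing notes name STAR and RSEM on mm10. TPM keeps no read depth, so the counting error of low values is unknown. Between 11508 and 13052 genes reached 1 TPM in a library. Single-cell files hold whole-number counts per gene and barcode, deposited by the authors after kallisto. The labels give 1 single-cell library per group, whereas the methods speak of replicates. With the 1 library per group that the labels give, single-cell values have no test.

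A gene was kept where 2 or more libraries reached 1 TPM. Its log2(TPM + 1) values entered a limma 3.58.1 fit (eBayes with a trend, R 4.3.3) with a mean for each group, which took the place of a count test because TPM values are not counts. The fit was tested on simulated data. Its p-values measure the spread between the isolates sequenced. Cells with more than 250 genes and under 10% mitochondrial counts were kept, doublets were not called, and cells were not clustered. Cell columns carry running numbers, so shared barcodes could not be counted. Positions are GENCODE annotation on mm10. Python 3.11.15, pandas 2.3.3, scipy 1.17.1 and matplotlib 3.10.9 were used.

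The members and gene lists were chosen with earlier results of these data known. Named genes were the members, the 3 genes with the highest Pearson r to each tested member, up to 4 called genes with the largest changes per list and comparison, and genes that the members' biology needs. Esr2, Wnt4, Gm42845, Cd55, Rspo1, the other genes of the casein locus and single marker genes were named after their values were seen. Alternatives were the pseudocount, the filter, median-ratio scaling, a replicate block, the fold limit, fits of only the compared groups, the filter on cells and left-out libraries. Leaving out the 4 lung libraries was chosen after the data were seen.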

Additional observations from a re-analysis of the deposited data

Results flagged for a closer look

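The CD44 difference differed between lung and another organ for Gata3 and Esr1 by a tested interaction contrast of limma on the log2(TPM + 1) scale, and Pgr passed the same limits. For Gata3 the lung difference exceeded that in LN by 6.42 and that in BM by 6.47 (limma adjusted p = 3.43e-05 for each), with both lung CD44high libraries above both lung CD44low libraries. For Pgr it exceeded that in LN by 2.88 and that in BM by 2.86, with 7 of the 8 LN and BM libraries listed at 0, but Pgr passed the filter only through lung CD44high, so this only repeats that it was present there. For Esr1 it exceeded that in BM by 2.17.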

How the results depend on the processing

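No called value reversed under the alternatives run. All counts include Pgr, whose calls in lung CD44high the filter had set. The 10 calls against MFP became 13 with a pseudocount of 0.1, 14 with no fold limit, 11 with median-ratio scaling, 9 with no filter and 8 with only the compared groups. For lung against LN and BM, the count of 3 called members became 5 with a pseudocount of 0.1 and 5 with no fold limit, as Pgr and Prlr joined. In that comparison the filter had set every call but that of Gata3. Leaving out single libraries gave counts of 9 to 11 against MFP, 2 to 3 for CD44, 3 to 4 for lung against LN and BM and 4 to 6 for the interaction. With the replicate block the counts were 10, 3, 3 and 5, as without it. With a pseudocount of 0.1 the interaction count was also 5, but with 4 higher and 1 lower, where the main fit had 5 higher. Deviations of same-numbered libraries had a Pearson r of -0.194 to 0.168 over 21 pairs of groups. With 2 libraries a group this cannot settle whether same-numbered libraries are paired, and the main fit did not pair them. The call of Csn3 in BM CD44high was lost with a pseudocount of 0.1 (limma adjusted p = 0.107), no filter (0.0686), only the compared groups (0.0566) and without either MFP library (0.0935 and 0.132), the first BM CD44high library (0.194) or either lung CD44low library (0.0533 for each). Gata3 in LN CD44low missed the threshold with only the compared groups (0.0528). The Esr1 interaction over BM was lost with a pseudocount of 0.1 (0.0740) and fell to 1.74 to 2.00 without the second BM CD44low, the first lung CD44low or the first lung CD44high library. Median-ratio scaling moved the median of all genes from -0.34 to 0.04 in BM CD44high, from -0.30 to 0.02 in LN CD44high, from -0.18 to 0.02 in LN CD44low, from -0.04 to 0.11 in BM CD44low and from 0.20 to -0.01 for lung against LN and BM, and turned no member. Leaving out the lung libraries, chosen after the data were seen, left 5 of 6 LN and BM calls. In single cells the summed level was 5.61 in lungH and 0.208 in lymphH with over 500 genes per cell, and 6.98 in lungH over all barcodes. Low TPM values have no known depth.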
